A study of Rattus norvegicus with 12 samples.

Results

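The Xianglianhuazhuo formula (XLHZ), a herbal preparation, was compared with no treatment in gastric mucosa of rats with chronic atrophic gastritis, across every mature miRNA counted. The members are the 8 of 12 small RNA libraries that share the deposited table of raw counts for these groups, 4 labelled model and 4 labelled XLHZ. The table listed 632 mature miRNAs, of which 402 had enough counts to be tested. Model rats drank the alkylating mutagen MNNG (N-Methyl-N'-Nitro-N-Nitrosoguanidine) at 180 µg/ml for 24 weeks. They were also gavaged with 2% sodium salicylate at 1 ml per 100 g, and 2 days of food alternated with 1 day of fasting. XLHZ rats carried this same exposure and received the formula for 60 days, so the comparison has no formula-only arm. The sources used here give no strain, age or formula dose. The 4 normal libraries, from rats with no treatment, are given below only as background levels. Whether the 4 libraries of each group are 4 rats is not stated in the labels, and p-values therefore describe spread between libraries, some of which may be technical.

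A mature miRNA is a short RNA cut from an arm of a hairpin, and it guides an Argonaute protein to mRNAs that pair with its seed, bases 2 to 8, lowering their translation and stability. Most hairpins are released from a longer transcript by the enzyme Drosha and then cut by Dicer. Because many miRNAs are strongly restricted to a cell type, a tissue's miRNA profile also carries a record of its cells. In stomach wall, miR-143 and miR-145 mark smooth muscle, miR-1 and miR-133 mark striated muscle, the miR-200 family and miR-375 mark epithelium, and miR-144 and miR-451 mark red blood cells.

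The following mature miRNAs are those the comparison turns on, written 5′ to 3′ with the seed in capitals. They are from RefSeq on assembly GRCr8, and 99 of the 110 miRNAs chosen for naming had an entry there, which did not include miR-320-3p. The first 3 were among the tested miRNAs with the smallest p or with groups that did not overlap.
let-7e-3p: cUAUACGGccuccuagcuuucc
let-7g-3p: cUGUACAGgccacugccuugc
miR-144-3p: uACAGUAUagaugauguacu
The next 4 had lower means with the formula and come from introns of host genes or, for miR-9a, from several loci active in nerve cells.
miR-338-3p: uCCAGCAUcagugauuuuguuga
miR-483-3p: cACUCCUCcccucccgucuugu
miR-708-5p: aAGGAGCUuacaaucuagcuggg
miR-9a-5p: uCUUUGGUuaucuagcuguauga
The pair miR-204-5p and miR-211-5p shares a seed and had fold changes of opposite sign. The pair miR-20a-3p and miR-20b-3p is shown because the deposited counts of miR-20b-3p disagreed between tables.
miR-204-5p: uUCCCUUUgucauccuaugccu
miR-211-5p: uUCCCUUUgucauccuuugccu
miR-20a-3p: aCUGCAUUacgagcacuuaca
miR-20b-3p: aCUGCAGUgugagcacuucugg

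The 8 libraries held 9095260 to 11439132 counts each and 531 to 555 detected miRNAs. Epithelial miR-200a-3p and miR-375-3p, expected of gastric mucosa, were abundant in every library. Smooth muscle was sampled as well: miR-143-3p alone took 18.8, 29.2, 25.1 and 14.1% of the counts in model libraries 1 to 4 and 9.39, 22.98, 17.8 and 12.8% in XLHZ libraries 1 to 4. The mean share was 21.8 ± 6.69% in the model and 15.7 ± 5.93% with the formula (SD, n = 4). The difference of -6.07 percentage points was within the spread between libraries (2-sided exact permutation test, p = 0.2, with 0.0286 the smallest p that 70 arrangements allow). Model libraries 2 and 3 held the highest shares, and list medians and several single miRNAs are given with and without them. As these libraries were picked for their miR-143-3p, smaller muscle differences without them follow from that choice and support nothing. Levels below are CPM, counts scaled to a common library size with TMM factors, and a log2 fold change is XLHZ against model. In this bulk RNA, fewer cells of a type cannot be told apart from less of its miRNA per cell.

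The formula's libraries differed from the untreated ones in a single miRNA beyond the spread between libraries. miR-320-3p, which matures without Drosha from a short capped transcript, rose with the formula. Its raw counts were 917, 871, 576 and 1066 in model libraries 1 to 4 and 2791, 5614, 2368 and 3967 in XLHZ libraries 1 to 4. The lowest XLHZ library lay above the highest model library, and XLHZ library 2 was the highest of all. On the CPM scale the model libraries had 93.4, 97.3, 60.1 and 90.2 and the XLHZ libraries 266, 539, 230 and 327. The means were 85.3 ± 17.0 and 340 ± 138 CPM (SD, n = 4), a 4.0-fold difference (log2 fold change 2.00, SE 0.31, Benjamini-Hochberg adjusted p = 0.0371 in the quasi-likelihood test of edgeR). Normal libraries spanned 108 to 236 CPM, so every model library lay below them and XLHZ libraries 1, 2 and 4 above them, with XLHZ library 3 inside their range. This was 1 of 402 tested miRNAs, 0.249% of them, called higher. After adjustment edgeR called 0% lower, and so did DESeq2 and limma-trend. At an unadjusted p under 0.05, 13 were lower in edgeR, 23 in DESeq2 and 11 in limma-trend, and 4 were higher in each.

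The size of the miR-320-3p difference was steadier than its adjusted p. Leaving out model library 1, 2, 3 or 4 or XLHZ library 1 or 4 moved the adjusted p above the threshold. The adjusted p in edgeR was then 0.153, 0.162, 0.121, 0.136, 0.0658 and 0.123, with log2 fold changes between 1.83 and 2.08. Over all single omissions the log2 fold change lay between 1.68 and 2.13. Without model libraries 2 and 3 together it was 1.86 (adjusted p = 0.450). miR-320-5p, cut from the opposite arm, had at most 2 counts in any library and was not tested. The other tested miRNA of the Drosha-independent list, miR-484, which is made from a capped transcript start, varied widely. It had 14.1, 43.4, 26.3 and 38.1 CPM without and 55.6, 8.93, 7.56 and 50.9 CPM with the formula, and its log2 fold change was 0.02. XLHZ libraries 2 and 3 held the lowest miR-484 levels and XLHZ libraries 1 and 4 the highest, so miR-484 and miR-320-3p did not follow each other across libraries.

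Among the 402 tested miRNAs, 205 had a positive and 197 a negative log2 fold change, with a median of 0.0057. With library totals in place of TMM factors the median moved to 0.17 and the split became 288 positive to 114 negative, so signs of small changes depend on the scaling. In fitted value 12 miRNAs differed by more than 2-fold, 2 positive and 10 negative. At an unadjusted p under 0.05 there were 4 positive (0.995% of those tested) and 13 negative (3.23%), where 20.1 in all would arise by chance. These counts were unstable, at 16 positive and 42 negative without model library 4, 3 and 26 without XLHZ library 2, 3 and 4 without XLHZ library 1, 3 and 3 without XLHZ library 4, and 4 and 7 without model library 3. They were 8 and 17 without model library 1, 4 and 8 without model library 2, and 8 and 9 on library totals. The 230 miRNAs not tested had at most 64 counts in any library.

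**Figure D1:**
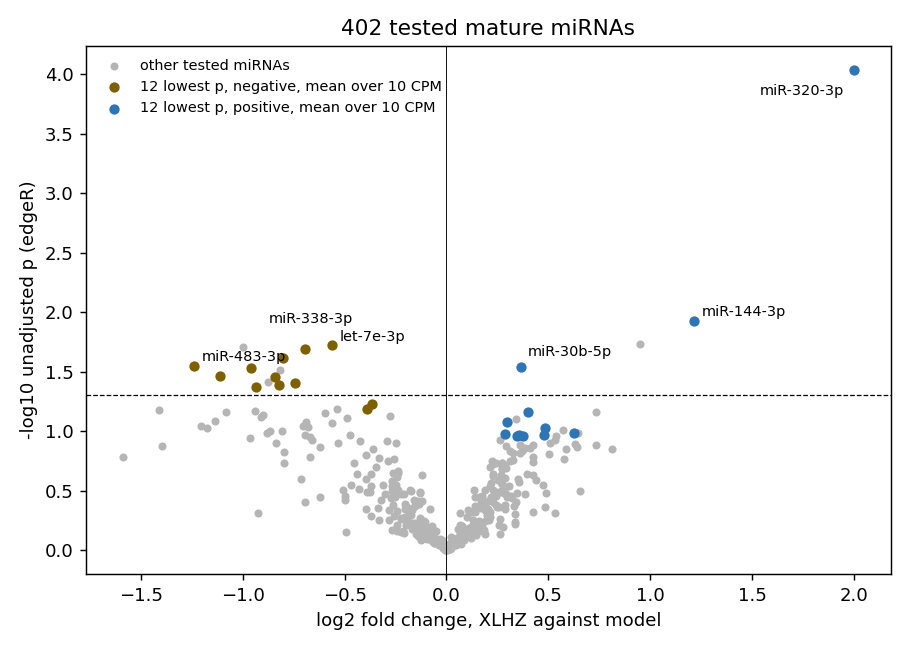
Each of the 402 tested miRNAs is a point, with its log2 fold change (XLHZ against model) on the x axis and the -log10 of its unadjusted edgeR p on the y axis; the dashed line is the unadjusted threshold of 0.05. Coloured points are the 12 miRNAs of smallest p in each direction with a mean of at least 10 CPM. miR-320-3p stands alone at the upper right, at 2.00, and the brown points lie between -1.24 and -0.37.

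In all, 5 miRNAs (1.24% of those tested) had groups that did not overlap, 4 with XLHZ above (0.995%) and 1 with XLHZ below (0.249%). Apart from miR-320-3p these did not pass, each with an adjusted p of 0.729 in edgeR. miR-30b-5p, of a family abundant in epithelia, had 20185, 15332, 17292 and 22686 raw counts in the model and 26886, 21829, 23452 and 33493 with the formula (log2 fold change 0.36, SE 0.14). Scaled, model libraries reached at most 2055 CPM and XLHZ libraries started at 2097 CPM, a narrow gap. let-7g-3p, the minor arm of its hairpin, had 55, 50, 58 and 70 counts against 78, 77, 89 and 75 (0.34, SE 0.17). miR-15a-5p, which restrains the cell cycle and BCL2, had 144, 104, 155 and 183 counts against 204, 186, 184 and 200 (0.29, SE 0.18). let-7e-3p, the minor arm of let-7e, was the miRNA below: 127, 156, 169 and 140 counts against 109, 115, 109 and 107 (-0.56, SE 0.20). Scaled, its XLHZ libraries lay at 8.81 to 11.0 CPM and its model libraries at 11.9 to 17.6 CPM, a range that held the normal libraries at 13.1 to 15.2 CPM. Of the 5, only miR-320-3p and let-7e-3p had groups apart under each scaling run (TMM, RLE, upper quartile and library totals). The balance of such miRNAs turned with the scaling, from 4 above and 1 below to 2 above and 5 below with upper-quartile factors, and it was 5 above and 2 below on library totals.

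**Figure D2:**
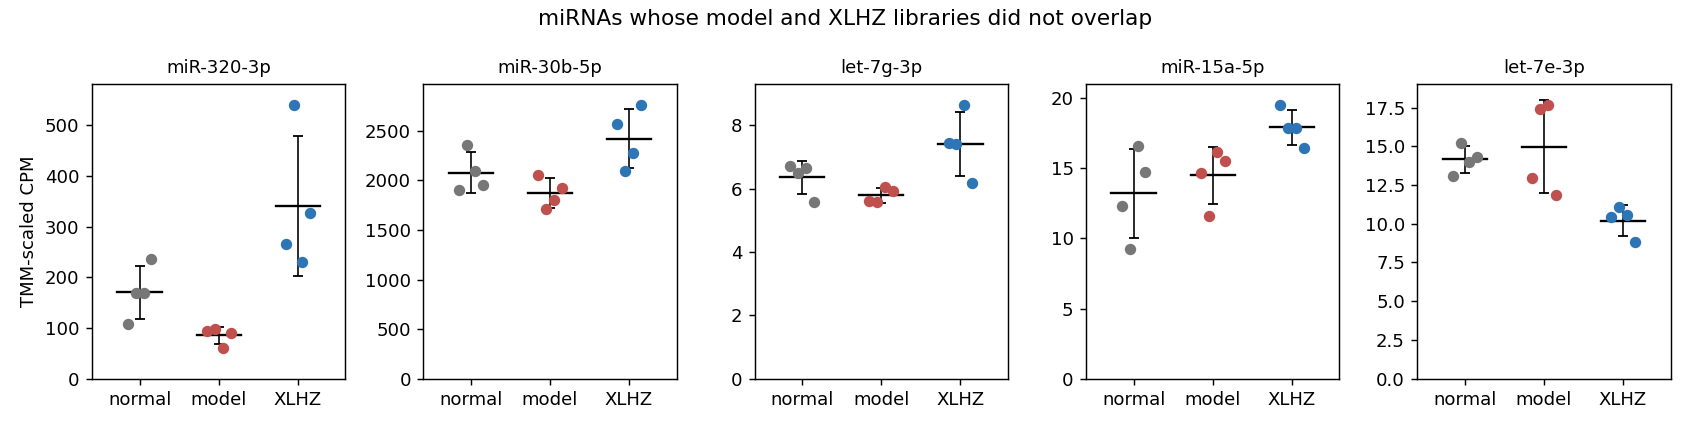
TMM-scaled CPM of the 5 miRNAs whose model and XLHZ libraries did not overlap, 1 panel each; points are the 4 libraries of the normal, model and XLHZ groups, the long bar is the mean and the error bar the SD. For miR-320-3p the model points lie at 60.1 to 97.3 CPM and the XLHZ points at 230 to 539 CPM, while the gaps in the other panels are small.

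The 12 miRNAs of smallest p with a lower mean under the formula were miR-338-3p, miR-483-3p and miR-708-5p of host-gene introns, miR-9a-3p, miR-9a-5p and miR-218a-5p of nerve cells, the muscle arm miR-133a-5p, and miR-204-5p, miR-100-5p, miR-374-5p, miR-195-5p and let-7e-3p. None passed (adjusted p of 0.729 each), and their log2 fold changes ran from -1.24 to -0.37 with a median of -0.81. Model libraries 2 and 3 were the highest of all 8 libraries in 11 of the 12, and XLHZ library 1 was the lowest in 10. Without those model libraries all 12 were still negative, but the median was -0.29. As the 12 were picked for p and sign in these same libraries, neither the kept signs nor the smaller median supports anything.

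Several of these reside in introns of genes for neural or growth factors. miR-338-3p, from the gene of the neuronal kinase AATK, had 342, 552, 497 and 325 CPM in model libraries 1 to 4 and 208, 362, 267 and 227 CPM in XLHZ libraries 1 to 4 (log2 fold change -0.70, SE 0.25). The groups overlapped through XLHZ library 2 alone, and normal libraries spanned 166 to 292 CPM. Without model libraries 2 and 3 the value was -0.36. miR-708-5p, from the gene of the teneurin TENM4, had 174, 333, 299 and 103 CPM in the model against 83.1, 161, 126 and 99.2 (-0.96, SE 0.37, and -0.27 without those libraries). Here model library 4 lay among the XLHZ libraries. The whole list of miR-338, miR-483, miR-708 and miR-139 arms had 6 tested members, all negative, with a median of -0.83, against 0.0057 for all tested miRNAs, and -0.31 without model libraries 2 and 3. As miR-338-3p, miR-483-3p and miR-708-5p were picked for p and sign in these same libraries, the common sign of the list supports nothing. The list leaves out other intronic miRNAs, of either sign, such as miR-378a-3p (0.48) and miR-218a-5p (-0.82).

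miR-483-3p, from an intron of Igf2, differed from the other 11 in its pattern. Its raw counts were 965, 166, 528 and 477 in the model and 339, 127, 238 and 284 with the formula, so that model library 1 was the highest and model library 2 the lowest of its group. The log2 fold change was -1.24 (SE 0.48), and -1.64 without model libraries 2 and 3 (adjusted p = 0.891). The mean was 53.1 ± 33.7 CPM without and 22.8 ± 8.25 CPM with the formula (SD, n = 4), and normal libraries had 16.4 to 29.4 CPM.

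Of the 12, 3 belong to the list of neurons and enteric nerves, in which 6 of 10 tested members were negative. miR-9a-5p, a miRNA of neurons and their progenitors, had 401, 722, 528 and 295 CPM without and 193, 370, 278 and 277 CPM with the formula (log2 fold change -0.80, SE 0.30). Its partner arm miR-9a-3p had -0.74. miR-218a-5p, made from introns of the SLIT guidance genes and enriched in motor neurons, had 147, 246, 281 and 125 CPM against 76.6, 165, 134 and 80.5 (-0.82, SE 0.35). Without model libraries 2 and 3 these values were -0.35, -0.30 and -0.29. miR-100-5p, a regulator of mTOR and of Hox genes, had 776 ± 353 CPM without and 434 ± 104 CPM with the formula (-0.84, and -0.21 without model libraries 2 and 3). Its seed is shared with miR-99b-5p, and reads of near-identical family members can be split between names.

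miR-204-5p, hosted by the ion channel gene Trpm3, had 368, 627, 1129 and 332 CPM without and 231, 408, 393 and 269.6 CPM with the formula (log2 fold change -0.93, SE 0.40). Model libraries 2 and 3 lay above all XLHZ libraries and model libraries 1 and 4 among them. Normal libraries spanned 223 to 261 CPM, and without model libraries 2 and 3 the value was -0.14. Its relative miR-211-5p, hosted by Trpm1 and identical in seed, was rare, at 0.611, 0.782, 0.730 and 1.10 CPM against 1.05, 1.92, 1.65 and 1.73. The log2 fold change of miR-211-5p was 0.95 (SE 0.33, adjusted p of 0.729), with XLHZ library 1 inside the model range.

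On the positive side the 12 of smallest p were miR-320-3p, miR-144-3p, miR-30b-5p, miR-331-3p, miR-30d-5p, miR-378a-3p, miR-34b-5p, miR-148b-3p, miR-221-5p, miR-221-3p, miR-340-3p and miR-30e-3p. Apart from miR-320-3p, none passed (adjusted p of 0.729 each). The 12 had a median log2 fold change of 0.39, and of 0.24 without model libraries 2 and 3, where all 12 stayed positive. They too were picked for p and sign in these libraries, so the kept signs support nothing. The lowest of the 8 libraries was model library 3 in 6 of them and model library 2 in 3.

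miR-144-3p, made with miR-451 in developing red cells, had raw counts of 97, 33, 72 and 157 in the model and 235, 235, 260 and 135 with the formula. The groups overlapped because model library 4 exceeded XLHZ library 4. Its log2 fold change was 1.22 (SE 0.39), and 0.76 without model libraries 2 and 3, and normal libraries ranged from 3.38 to 61.5 CPM, wider than both groups. miR-378a-3p, from an intron of the metabolic coactivator gene Ppargc1b, had 6283 ± 2306 CPM without and 8833 ± 953 CPM with the formula (0.48, SE 0.26), and 0.10 without model libraries 2 and 3. miR-221-3p, which represses the cell-cycle inhibitor p27, had 1302 ± 317 and 1676 ± 228 CPM (0.36, SE 0.20, and 0.11 without model libraries 2 and 3). The 3 tested arms of miR-221 and miR-222 were all positive, with a median of 0.36, and of 0.26 without those libraries.

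Marker lists group miRNAs by the cell types they are typical of, and many of the single miRNAs above are in none of these lists. No member of any list passed in edgeR apart from miR-320-3p. The 4 smooth muscle arms of miR-143 and miR-145 were all negative, with a median log2 fold change of -0.67. Their summed level was 219442, 412566, 347320 and 145372 CPM in model libraries 1 to 4 and 96356, 274922, 207511 and 134508 CPM in XLHZ libraries 1 to 4. Model libraries 2 and 3 were highest, model library 4 lay near XLHZ library 4, and normal libraries spanned 128350 to 223294 CPM. Without model libraries 2 and 3 the median was -0.07.

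Striated muscle miRNAs had the same libraries at the top. Of 7 tested members, 6 were negative (median -0.90), and without model libraries 2 and 3 the median was 0.03 with 4 of 7 positive. miR-1b, a muscle differentiation miRNA, had 8784, 20304, 20715 and 6023 CPM without and 3935, 11313, 8666 and 5410 CPM with the formula (-0.94, SE 0.45). The XLHZ libraries followed the order of their own smooth muscle sums, library 2 highest and library 1 lowest. The list of neurons and enteric nerves had 6 of 10 tested members negative and a median of -0.67. Its summed level was 870.4 to 1906 CPM in the model, 689 to 1052 CPM with the formula and 714 to 1093 CPM in normal libraries. Its positive members were miR-153-5p (0.44), miR-153-3p (0.26), miR-219a-5p (0.26) and miR-129-5p (0.14). Without model libraries 2 and 3 the list median was -0.28 with 8 of 10 negative.

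Blood-cell lists had positive medians. The 4 tested erythroid members, of miR-144, miR-451 and miR-486, were all positive with a median of 0.69, which was 0.08 without model libraries 2 and 3. Their summed level was 110, 34.5, 61.9 and 133 CPM without and 204, 91.9, 141 and 106 CPM with the formula, the reverse order of the smooth muscle sums in the model. Among 9 tested leukocyte members 7 were positive (median 0.19), and all 9 without model libraries 2 and 3 (median 0.35). miR-142-3p, found in all blood lineages, had 2276, 1525, 3433 and 2247 CPM against 1932, 2637, 3754 and 4238 (0.39, SE 0.31). miR-146a-5p, an NF-kB target that damps inflammatory signalling, had 1398, 1282, 6122 and 1383 CPM against 1655, 1397, 2028 and 3815 (-0.21, SE 0.57). Its log2 fold change ran from -0.61 to 0.70 as single libraries were left out. The part of muscle and blood content in the changes of other miRNAs was not tested.

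**Figure D3:**
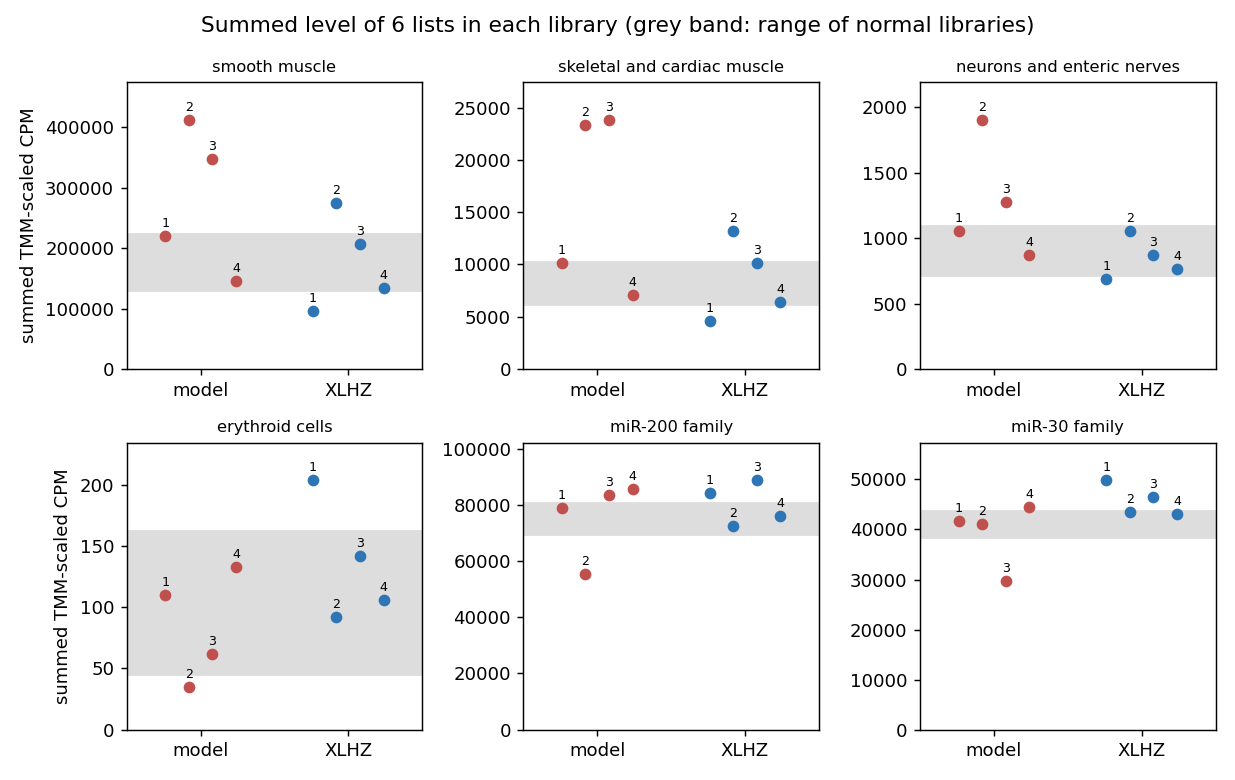
Summed TMM-scaled CPM of the tested members of 6 lists in each library; numbers are library numbers, colours the model (red) and XLHZ (blue) groups, and the grey band is the range of the 4 normal libraries. In the muscle and nerve panels model libraries 2 and 3 lie above the band, as XLHZ library 2 does for muscle, in the erythroid panel model library 2 lies below it, and XLHZ library 1 is the highest erythroid and lowest muscle library.

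Epithelial miRNAs showed small differences. The miR-200 family, which keeps cells epithelial by repressing ZEB factors, had 6 of 9 members positive and a median of 0.14, and one of -0.09 without model libraries 2 and 3. Its most abundant member, miR-200a-3p, had 25555, 18109, 26845 and 27239 CPM against 28932, 24473, 30086 and 25503, with model library 2 the lowest. The miR-183 cluster, known from sensory epithelium, had 4 of 4 positive (median 0.15, and -0.13 without those libraries). The family of miR-148 and miR-152 had 6 of 6 positive (median 0.23, and -0.08 without them). In it miR-148a-3p, abundant in stomach epithelium, had 5694, 3920, 1360.1 and 6377 CPM in the model and 6201, 5585, 5883 and 5089.5 with the formula, model library 3 being the low value. Endocrine miR-375-3p had the same low library, with 13313, 13134, 5099.7 and 11269 CPM against 16505, 11038, 11899 and 12737 (0.28, SE 0.27). miR-192, miR-194 and miR-215, typical of intestinal epithelium, had 4 of 4 negative (median -0.22). That median was -0.45 without model library 2 and turned to 0.20 without model library 3. The list had miR-192-5p at 6129.5, 3253, 11666 and 6770.4 CPM against 5279, 5998, 7531 and 5915. For that miRNA the model held both the lowest and the highest library. Squamous miR-205 and miR-31a had no common sign, and their list's median of -0.01 turned positive on library totals.

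The miR-30 family, broad repressors of developmental and mesenchymal programs, was positive in 11 of 11 members, where 51.0% of all tested miRNAs were positive. Its median was 0.26, and 0.13 without model libraries 2 and 3, with 9 of 11 positive. Summed, it had 41775, 40999.5, 29797 and 44452 CPM without and 49796, 43584, 46453 and 43061 CPM with the formula, so model libraries 1, 2 and 3 lay below every XLHZ library and only model library 4 reached their range. The p53-responsive family of miR-34 and miR-449 had 4 of 5 negative (median -0.62, and 0.11 without those libraries). miR-34a-5p had 411, 517, 2128 and 292 CPM in the model and 312, 405, 356 and 467 with the formula (log2 fold change -1.14, SE 0.58), a difference carried by model library 3. miR-21-5p, raised in many inflamed and cancerous tissues, had 37437, 38165, 90249.8 and 33588 CPM in the model and 29570.3, 35339, 44927 and 43734 with the formula (-0.39, SE 0.32), again with model library 3 high.

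The family of miR-99, miR-100 and miR-125, often made from let-7 clusters, had 9 of 10 negative (median -0.25, and -0.08 without model libraries 2 and 3). The miR-10 and miR-196 miRNAs of the Hox clusters had 3 of 5 negative (median -0.53, and -0.09 without them), with miR-10a-5p at 7926, 14258, 8097 and 5258 CPM against 4579, 7974, 6263 and 5342. Medians of the miR-17-92 (-0.11), let-7 (-0.09), miR-15 (-0.12), miR-23 (-0.14), miR-181 (-0.12), miR-26 (-0.11), miR-29 (0.01), mesenchyme (-0.07) and Dlk1-Dio3 (-0.01) lists were small. With the exception of miR-29, whose median was already positive and turned negative with RLE factors, these turned positive on library totals.

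**Figure D4:**
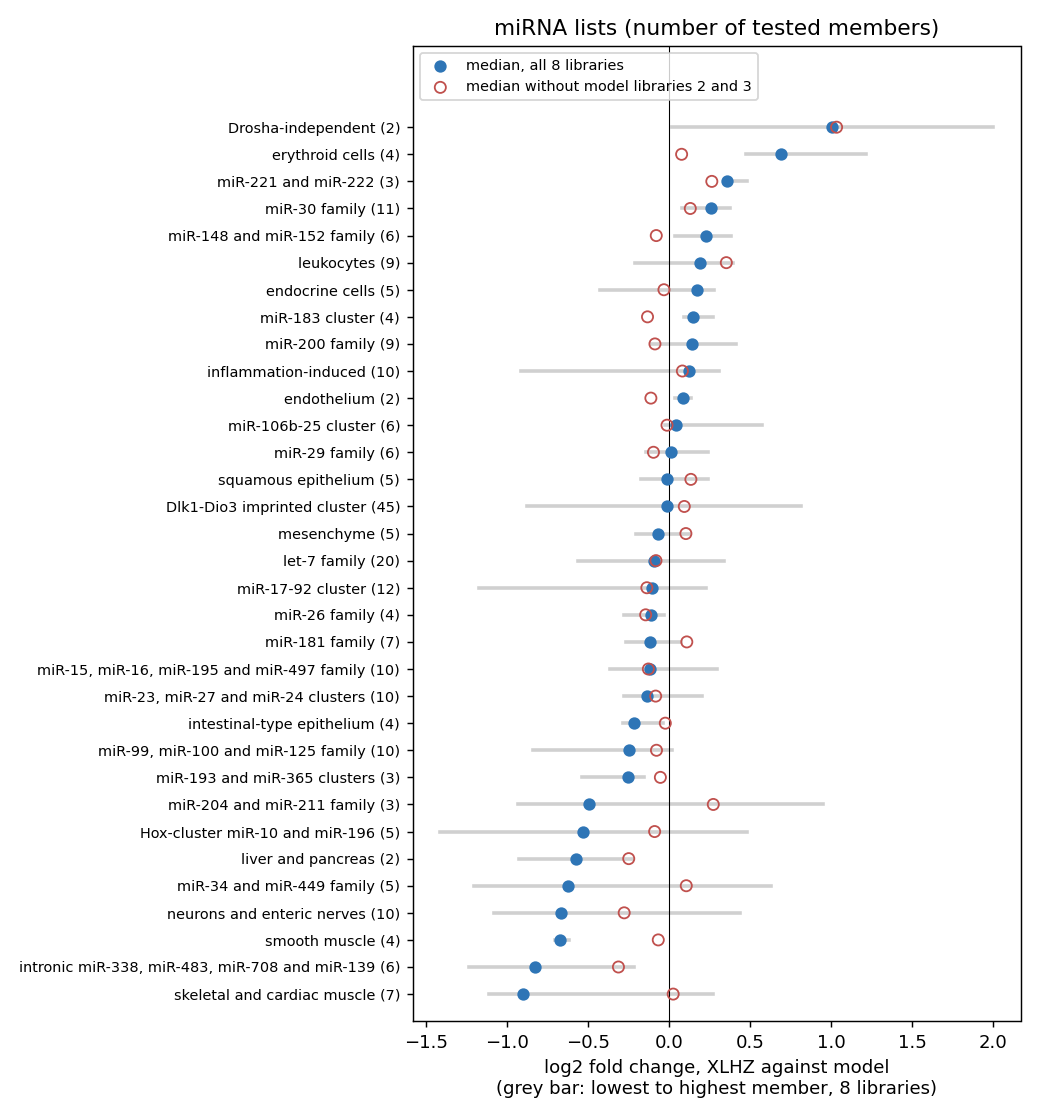
Median log2 fold change (XLHZ against model) of 33 miRNA lists with all 8 libraries (filled) and without model libraries 2 and 3 (open); grey bars run from the lowest to the highest member and the number of tested members is in brackets. The lowest medians with all 8 libraries are those of skeletal and cardiac muscle (-0.90) and of the intronic list (-0.83), and the topmost point is the midpoint of only miR-320-3p at 2.00 and miR-484 at 0.02.

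Counts were also summed over miRNAs that share a seed and hence predicted targets. RefSeq gave a seed for 572 of the 632 miRNAs, and the 60 others were kept single. Of 330 tested seed families, 56 with several members, 1 was called higher (0.303%). This was again miR-320-3p alone (log2 fold change 1.96, SE 0.32, adjusted p = 0.0401 in edgeR). It was among the 60 kept single, so the call rests on the same counts as the single-miRNA result. edgeR called 0% lower. At an unadjusted p under 0.05, 13 of the 330 were lower and 2 higher, together no more than would arise by chance at that threshold. The family of miR-34 and miR-449, seed GGCAGUG, had 1106 ± 1137 CPM without and 534 ± 48.1 CPM with the formula (-1.07, SE 0.54). Model library 3 alone carried that difference, at 2808 CPM, while model libraries 1, 2 and 4 had 560, 618 and 440 CPM against 490 to 600.03 CPM with the formula. The muscle seed GGAAUGU of miR-1 and miR-206 had -0.96 (SE 0.46), and the seed UCCCUUU of miR-204-5p and miR-211-5p had -0.94 (SE 0.39), the rarer miR-211-5p having little weight. The let-7 seed GAGGUAG, with 9 members, had -0.07 (SE 0.10), and the miR-30 seed GUAAACA, of the members with a sequence, 0.13 (SE 0.18). Each of these had an adjusted p of 0.803 or more.

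The balance between the arms of a hairpin is a ratio within a library, so it does not depend on library scaling. An unchanged balance does not show whether a change lies in the hairpin's transcript or after it is cut. Of 228 hairpins with both arms listed, 126 were tested, and 0% were called changed in balance (smallest adjusted p 0.725, limma). At an unadjusted p under 0.05 there were 7 of the 126, near the number that would arise by chance. A hairpin that was not called is not thereby shown to be unchanged. The smallest p was that of miR-130a, with a log2 ratio of 5p to 3p counts of -9.11 ± 0.19 in the model and -8.57 ± 0.30 with the formula. let-7e was among the 5 smallest, its ratio being 8.30 ± 0.13 and 8.61 ± 0.19, as its 3p arm was lower. Across 125 hairpins with both arms tested singly, 92 had the same sign in both arms, and r was 0.68 (over hairpins of the same libraries, which are not independent).

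The groups also differed in how much their libraries varied. Among 285 tested miRNAs with a mean of at least 10 CPM, the SD of log2(CPM + 1) had a median of 0.38 in the model, 0.21 with the formula and 0.23 in normal libraries. It was larger in the model for 229 of the 285, and above 1 for 17 miRNAs in the model and 3 with the formula. These miRNAs share the same 8 libraries, so the count is a description and carries no test. The median distance of a library to the other 3 of its group was 0.23, 0.36, 0.44 and 0.32 (log2) in the model, highest in libraries 3 and 2, and 0.20 to 0.23 with the formula.

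The largest model spread was that of miR-551b-3p, a miRNA that was rare in normal mucosa here. Its model libraries had 27.7, 176, 29.5 and 0.593 CPM and its XLHZ libraries 23.01, 16.7, 21.9 and 15.9 CPM, against at most 1.53 CPM in normal libraries. XLHZ libraries were thus alike and all above the normal ones, while model library 4 sat at the normal level. miR-344a-3p had 11.8, 152, 35.2 and 5.42 CPM without and 18.2, 22.8, 21.6 and 14.7 CPM with the formula, again with model library 2 highest and model library 4 lowest. miR-122-5p, the main miRNA of liver cells, varied in both groups, with 2.14, 2.23, 95.1 and 45.0 CPM against 21.3, 1.73, 52.7 and 3.79. miR-184, enriched in cornea and other surface epithelia, did so too, at 1.02, 10.7, 42.1 and 12.5 CPM against 32.7, 0.865, 15.03 and 0.247. None of these 4 differed between the groups beyond that spread (adjusted p of 0.729 to 0.935).

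**Figure D5:**
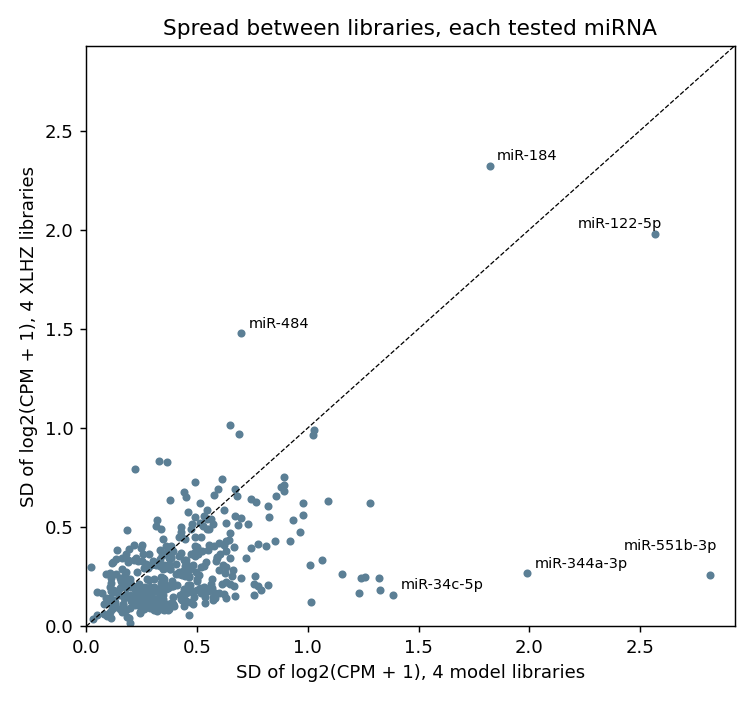
SD of log2(CPM + 1) over the 4 XLHZ libraries (y axis) against that over the 4 model libraries (x axis) for each tested miRNA; the dashed line marks equal SD. Most points lie below the line, with miR-551b-3p farthest to the right at 2.81 against 0.26, and miR-184 and miR-484 lie above it.

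miR-20b-3p is the 3p arm of a hairpin in the miR-106a cluster on the X chromosome, and its counts need care. In the table of model and XLHZ libraries it had 251, 152, 1003 and 254 counts in the model and 298, 195, 246 and 336 with the formula. With these counts the 3p arm exceeded the 5p arm in every library. The log2 ratio of 5p to 3p counts was -2.19 ± 1.03 in the model and -1.53 ± 0.38 with the formula (SD, n = 4). In the deposited table of normal and model libraries the same model libraries had 5, 2, 0 and 0 counts, and normal libraries 1 to 4 had 3, 3, 7 and 5. miR-20a-3p, the minor arm of a miR-17-92 hairpin, had 284, 166, 1375 and 264 counts in the model and 296, 198, 231 and 319 with the formula, so in the first table miR-20b-3p followed miR-20a-3p library by library, at 0.729 to 1.06 times its count. Normal libraries 1 to 4 had only 6, 7, 9 and 6 counts of miR-20a-3p. The printed sequences of miR-20a-3p and miR-20b-3p share 15 of their first 21 bases. Within the first table the log2 fold change of miR-20b-3p was -0.80 (SE 0.56, adjusted p of 0.743) and turned to 0.18 without model library 3. That of miR-20a-3p was -1.18 (SE 0.63, adjusted p = 0.729). The sources used here do not say which deposited counts of miR-20b-3p hold.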

How the data were processed

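Small RNA libraries came from total RNA of gastric mucosa with integrity numbers above 7.0 and a QIAseq kit, per the labels' protocols. The submitters' processing notes name Bowtie and DESeq and no version of either. Also not given in the sources used here: genome build, counting rule and any collapse of molecular identifiers. The deposited values are raw counts for each mature miRNA, per the file headers. Deposited CPM columns equal count over column total and served for that check only.

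The 8 libraries were fitted in edgeR 4.0.16 (R 4.3.3) by quasi-likelihood with TMM scaling, after filterByExpr at a minimum count of 10. Benjamini-Hochberg adjustment covered all 402 tested miRNAs, at a threshold of 0.05. Levels are CPM scaled by TMM over 12 libraries, joined through model counts that were identical in both tables except for miR-20b-3p. That miRNA was left out of the join and has no normal CPM. Seed families were summed and fitted likewise. Arm balances, log2((5p + 0.5)/(3p + 0.5)) with a mean of at least 10 counts per arm, were fitted with limma 3.58.1. The procedure was tested on simulated counts.

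Named miRNAs are those that passed, the 12 of smallest p in each direction with a mean of at least 10 CPM, those with groups that did not overlap, the 3 most abundant members of each list, the 5 most abundant miRNAs, and miR-20b-3p. miR-20a-3p, miR-551b-3p, miR-344a-3p, miR-184 and the positive nerve-list members were added after their values were seen. The members, lists and alternatives were chosen with earlier results of these data known. Alternatives were other scalings and filters, DESeq2 1.42.0, limma-trend, a replicate block, all 12 libraries in 1 fit, and libraries left out. No pair of libraries within a group was as alike as sampling noise alone would give.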

Additional observations from a re-analysis of the deposited data

Results flagged for a closer look

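In 66 groups of 4 libraries examined, 4 held an isolated library. Its gap to its nearest neighbour took up more of the group's range than Dixon's critical value for 4 samples. Chance alone flags about 1 group in 20, and 4 of 66 lies near that share. Model library 3 was the isolated library in 3 of the 4 groups. It had 90249.8 CPM of miR-21-5p against 33588 to 38165 in the other model libraries, 6.99 CPM of miR-221-5p against 12.4 to 13.3, and 104.6 CPM of miR-20b-3p against 17.0 to 25.6. For miR-20b-3p the deposited tables also disagree. The remaining case was let-7f-5p in XLHZ library 3, at 62076.5 CPM against 53025 to 53577 in the other XLHZ libraries.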

How the results depend on the processing

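miR-320-3p was the miRNA called, and no other, with RLE or upper-quartile factors, library totals, library sizes without the 5 most abundant miRNAs, either other count filter, DESeq2, limma-trend, robust fitting, all 12 libraries in 1 fit, and miR-20b-3p left out. With 1 library left out the number of miRNAs called higher ranged from 0 to 1, that of seed families called higher from 0 to 1, and the log2 fold change of miR-320-3p from 1.68 to 2.13. Without model libraries 2 and 3, 0 miRNAs and 0 seed families were called higher and the log2 fold change of miR-320-3p was 1.86 (adjusted p = 0.450). None was called lower under any of these settings, and arm balances had none called. With 1 library left out the difference in miR-143-3p share ranged from -8.65 to -3.61 percentage points. With a replicate block 1 miRNA was called higher and 0 lower, with 9 and 29 at an unadjusted p under 0.05. The deviations of equally numbered libraries correlated at 0.10, 0.50, 0.30 and -0.18, and 4 of 8 libraries correlated best with their own number, and the labels name no animal or batch behind a number, so the numbers were not taken as pairs. Whether equally numbered libraries share a source was not tested. The 26 miRNAs named for their p or for groups that did not overlap kept their sign in all 546 refitted values. These 26 were picked for their difference in the same libraries, so kept signs largely follow from that choice and support nothing. Of 84 named for abundance, 58 changed sign at least once, in 187 of 1758 values. The 230 miRNAs that were not tested had at most 64 counts in any library, and whether depth limited them was not tested.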
